A study of Homo sapiens with 12 samples.

Results

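Interferon-stimulated genes are genes whose transcription rises when a cell senses interferon, and 33 of them were followed here in human leukemia cells given a drug that releases nitric oxide. A list of 34 symbols was used, and a gene counted where the array held a probe set listed with its symbol alone. Of several such probe sets for a gene, the brightest on average across the 12 arrays was taken. STAT2 was not analysed here. The other 33 stand among 19775 genes of the array. Their symbols were listed by what is known of them and not by their values, though with results of these data already known.

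U937 is an established line of human myeloid leukemia cells that resemble immature monocytes. The cells received JS-K, the nitric-oxide-releasing prodrug, for 90 min, 4 h or 24 h, or its vehicle DMSO, with 3 arrays of biological replicates in each of the 4 groups. All cells were of this 1 line and no group carried another treatment. No dose of JS-K and no exposure time of the vehicle cells is given in the labels, and with 1 vehicle group time in culture and JS-K cannot be told apart. Values are log2 signals, on which a difference of 1 is a factor of 2, and a level under 4 is called low signal here. A gene is called higher or lower at a Benjamini-Hochberg adjusted p under 0.05 over all 19775 genes in limma, with all 12 arrays in 1 fit. Differences carry the standard error (SE) of that fit, and levels carry the standard deviation (SD) of 3 arrays.

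Of 10 myeloid markers measured, 8 had signal of 4 or more and MPO and FCGR1A were low. Set against vehicle, the 24 h arrays showed 5 of the 10 higher and 2 lower, beside 17.8% and 18.9% of all genes. The log2 differences were 2.80 for CSF1R, 1.59 for PTPRC, 1.58 for SPI1, 1.57 for ITGAM and 0.53 for LYZ. They were -0.84 for ELANE and -0.30 for CEBPA. Their part in the changes at 24 h was not tested. All 4 markers of T cells, all 4 of epithelium and all 3 of erythrocytes and platelets lay under 4 in every group, as did 2 of 3 of B cells, 3 of 4 of fibroblasts and 2 of 4 of plasmacytoid dendritic cells. The exceptions were PAX5 (4.35 at 24 h, 5.99 in vehicle), COL1A1 (5.09 and 5.14), TCF4 (7.08 and 7.77) and LILRA4 (4.07 and 3.53), and their part in the results was not tested. Replicate 2 of the 4 h group stood apart from the other arrays in its median, the highest at 3.10, and in its upper quartile, the lowest at 6.20. Probe sets for poly-A spikes, bacterial transcripts added during preparation, averaged 3.04 in vehicle, 3.08 at 90 min, 7.02 at 4 h and 8.47 at 24 h. Hybridization spikes averaged 11.70 at 24 h against 9.96 in vehicle, and the 3′ minus 5′ difference of GAPDH 0.129 against 0.0048, with no overlap of arrays in either. The part of these 3 measures in the results below was not tested.

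Interferons are cytokines released on infection. They bind receptors that act through the kinases JAK1 and TYK2, and STAT proteins then enter the nucleus, where STAT2 pairs with IRF9 in a complex that binds the interferon-stimulated response element (ISRE) in promoters. Other STAT dimers bind the gamma-activated site (GAS). The genes so induced encode further transcription factors, sensors of viral RNA, the ubiquitin-like protein ISG15 and proteins that block steps of viral growth, and monocytic cells are known as strong responders to interferon.

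Promoters are shown because these response elements lie there, for the 6 called genes with the largest differences among those that had a RefSeq window with a match, which leaves out GBP2, IRF7, TRIM22 and MX2. The windows are the 250 bases before the annotated start, 5′ to 3′ on the strand of the gene, from RefSeq on GRCh38.p14. Capitals mark matches to an ISRE core, searched as GAAANNGAAA on both strands (TTTCNNTTTC on the other), or to GAS, searched as TTCNNNGAA, which reads alike on both strands.
OAS1, chr12:112906712-112906961, plus strand: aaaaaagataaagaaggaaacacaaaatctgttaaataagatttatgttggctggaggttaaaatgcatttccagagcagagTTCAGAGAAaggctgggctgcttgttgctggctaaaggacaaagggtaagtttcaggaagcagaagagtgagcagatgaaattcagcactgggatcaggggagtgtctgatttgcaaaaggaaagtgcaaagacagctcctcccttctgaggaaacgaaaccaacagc
IRF9, chr14:24161015-24161264, plus strand: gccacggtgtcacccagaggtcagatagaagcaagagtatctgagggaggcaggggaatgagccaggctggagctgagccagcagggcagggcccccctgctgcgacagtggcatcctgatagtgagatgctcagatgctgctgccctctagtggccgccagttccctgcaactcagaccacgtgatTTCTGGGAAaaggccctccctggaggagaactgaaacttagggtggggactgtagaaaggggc
IFIT3, chr10:89327747-89327996, plus strand: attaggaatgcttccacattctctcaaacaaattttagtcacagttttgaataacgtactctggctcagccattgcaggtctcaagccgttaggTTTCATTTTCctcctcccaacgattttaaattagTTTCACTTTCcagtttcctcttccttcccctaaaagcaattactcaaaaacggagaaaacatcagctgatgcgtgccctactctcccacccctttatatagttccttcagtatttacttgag
IRF1, chr5:132490774-132491023, minus strand: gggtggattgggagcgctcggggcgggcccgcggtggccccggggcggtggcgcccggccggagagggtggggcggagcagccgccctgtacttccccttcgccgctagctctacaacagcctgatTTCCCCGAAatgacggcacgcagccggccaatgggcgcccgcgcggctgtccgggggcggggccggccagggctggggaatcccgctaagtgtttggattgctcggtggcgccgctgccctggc
OAS3, chr12:112938224-112938473, plus strand: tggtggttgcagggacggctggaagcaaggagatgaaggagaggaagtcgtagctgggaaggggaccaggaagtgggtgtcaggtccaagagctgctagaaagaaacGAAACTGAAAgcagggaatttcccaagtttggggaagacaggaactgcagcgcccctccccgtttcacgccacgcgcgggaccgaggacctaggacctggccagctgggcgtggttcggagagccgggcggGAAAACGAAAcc
BST2, chr19:17405631-17405880, minus strand: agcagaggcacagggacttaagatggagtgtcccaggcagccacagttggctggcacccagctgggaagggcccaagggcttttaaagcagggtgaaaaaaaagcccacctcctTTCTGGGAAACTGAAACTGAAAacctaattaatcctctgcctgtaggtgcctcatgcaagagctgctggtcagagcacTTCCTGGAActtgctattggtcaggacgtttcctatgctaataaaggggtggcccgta

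In these windows OAS1, IRF9 and IRF1 held 1 GAS match each, which began 168, 63 and 124 bases before the start. IFIT3 held ISRE letters from 156 and 122 bases before its start, and OAS3 from 143 and 12 bases before. A gene with several RefSeq starts was counted by any of its windows, and a further IFIT3 window held 2 more ISRE matches. In BST2 a pair of ISRE matches, from 130 and 124 bases before the start, overlapped each other, a GAS match from 136 overlapped the first of them, and a further GAS match began at 58. RefSeq windows were at hand for 25 of the 33 genes, and not for IRF7, USP18, IFIT2, OAS2, OASL, MX2, GBP2 and TRIM22. ISRE letters stood in 19 of the 25 (76%), beside 1014 of 27305 genes with a window (3.71%). GAS letters stood in 8 of the 25 (32%), beside 2208 of all such genes (8.09%). A match describes letters and is neither a binding site nor a cause. The ISRE search took only cores with 2 bases between the GAAA letters, so elements spaced otherwise were missed. The OAS1 window holds gaaacgaaa, with 1 base between, near its end, and this was not counted. Of the 8 genes with a window that were higher at 24 h, ISRE letters as searched stood in 5 (IFIT3, OAS3, ISG15, SAMD9 and GBP1). GAS letters stood in the other 3, OAS1, IRF9 and IRF1. Of the 16 that were not called at 24 h, 13 held ISRE letters and 4 held GAS letters, among them genes of low signal such as IFIT1, MX1 and RSAD2.

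At 24 h the interferon-stimulated genes split. OAS1, IRF9, IFIT3, GBP2, IRF7, IRF1 and OAS3 were each at least 2-fold higher than in vehicle, SAMD9 and ISG15 were higher by less, and TRIM22, MX2, BST2 and USP18 were lower. In all, 10 of the 33 genes were called higher and 4 lower, against 17.8% of all genes higher and 18.9% lower (36.7% in either direction). The tenth gene higher, GBP1, had low signal in both groups. The remaining 19 genes were not called, and 15 of the 33 had low signal in all 4 groups. The median difference of the 33 genes was 0.07, beside 0.06 over all genes. Among the 9551 genes whose mean was at least 4, fitted alone, 27.9% were higher and 39.3% lower at 24 h. That fit held 18 of the interferon-stimulated genes, of which 9 were higher and 5 lower. In RNA of whole cultures, fewer cells with a transcript and less of it per cell cannot be told apart.

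**Figure D1:**
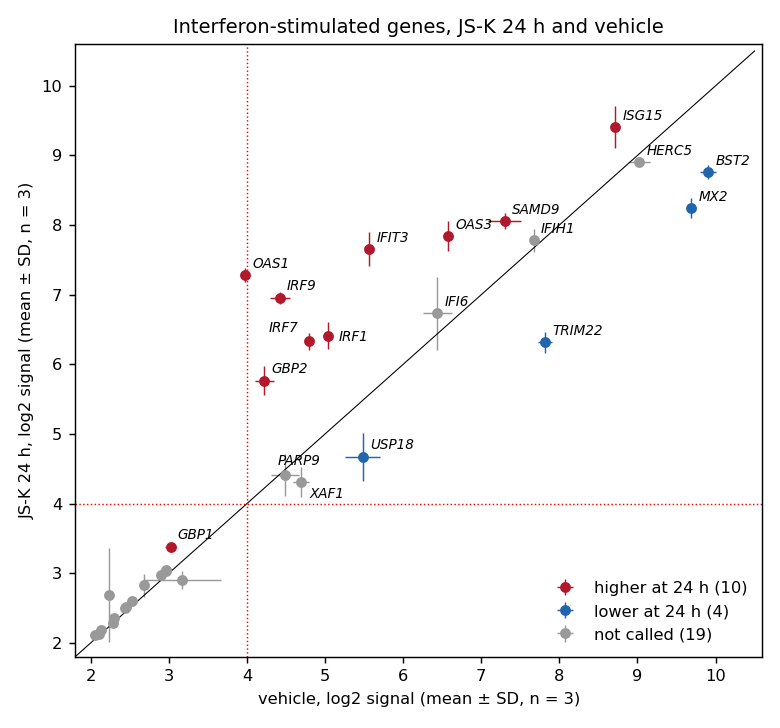
Mean log2 signal of the 33 interferon-stimulated genes at 24 h of JS-K (vertical axis) and in vehicle (horizontal axis), with bars of 1 SD over 3 arrays. Red points are the 10 genes called higher at 24 h, blue points the 4 called lower and grey points the 19 not called, the diagonal marks equal levels, and dotted lines mark the low-signal level of 4. OAS1 lies farthest above the diagonal and TRIM22 and MX2 lie farthest below it.

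All 3 measured regulators of the pathway, IRF9, IRF7 and IRF1, were higher at 24 h. IRF9 (chromosome 14, 24161265 to 24166565) is the DNA-binding part of the complex it forms with STAT2. Its levels were 4.54, 4.44 and 4.28 in vehicle, 3.59, 4.35 and 3.97 at 90 min, 5.57, 4.56 and 5.49 at 4 h, and 6.95, 7.05 and 6.88 at 24 h. All 24 h arrays lay above all others, and the 4 h arrays lay above vehicle, where replicate 2 of the 4 h group was higher by the least. The difference from vehicle was 2.54 ± 0.26 at 24 h, a 5.80-fold higher signal (adjusted p = 5.66e-06). At 4 h it was 0.79 ± 0.26 (adjusted p = 0.0414). That call at 4 h ended when any of the 3 vehicle arrays, or 4 h replicate 1 or 3, was left out (adjusted p of 0.0702 to 0.103), and also with a constant spread, array medians subtracted or the 6 arrays alone (0.0553 to 0.101). Without 4 h replicate 2 the difference was 1.11 (adjusted p = 0.00232).

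IRF7 (chromosome 11, 612555 to 615950) is the factor that drives most interferon alpha genes once it has been induced. Its levels were 4.76, 4.83 and 4.78 in vehicle, 5.34, 5.27 and 5.16 at 90 min, 5.51, 5.39 and 5.35 at 4 h, and 6.47, 6.24 and 6.28 at 24 h. No groups overlapped, and each later group lay above the one before it. IRF7 was the sole member of the list called higher at all 3 times, by 0.47 ± 0.13 at 90 min (adjusted p = 0.0378), 0.63 ± 0.13 at 4 h (0.00326) and 1.54 ± 0.13 at 24 h (8.86e-07, 2.90-fold). The call at 90 min ended without any 1 of the 6 arrays compared (adjusted p of 0.0637 to 0.143).

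IRF1 (chromosome 5, 132481609 to 132490773) is a transcription factor best known as a target of interferon gamma. Its levels were 4.99, 5.04 and 5.06 in vehicle, 4.88, 4.78 and 4.90 at 90 min, 5.49, 4.78 and 5.28 at 4 h, and 6.54, 6.50 and 6.19 at 24 h. The 24 h arrays stood above all others, while at 4 h replicate 2 lay below vehicle and the other 2 arrays above it. The difference was 1.38 ± 0.18 at 24 h (2.60-fold, adjusted p = 4.89e-05) and 0.15 ± 0.18 at 4 h, not called. A further IRF1 probe set of lower signal gave 0.29 ± 0.21 at 24 h and was not called (adjusted p = 0.247), and the mean of both gave 0.84, still called.

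**Figure D2:**
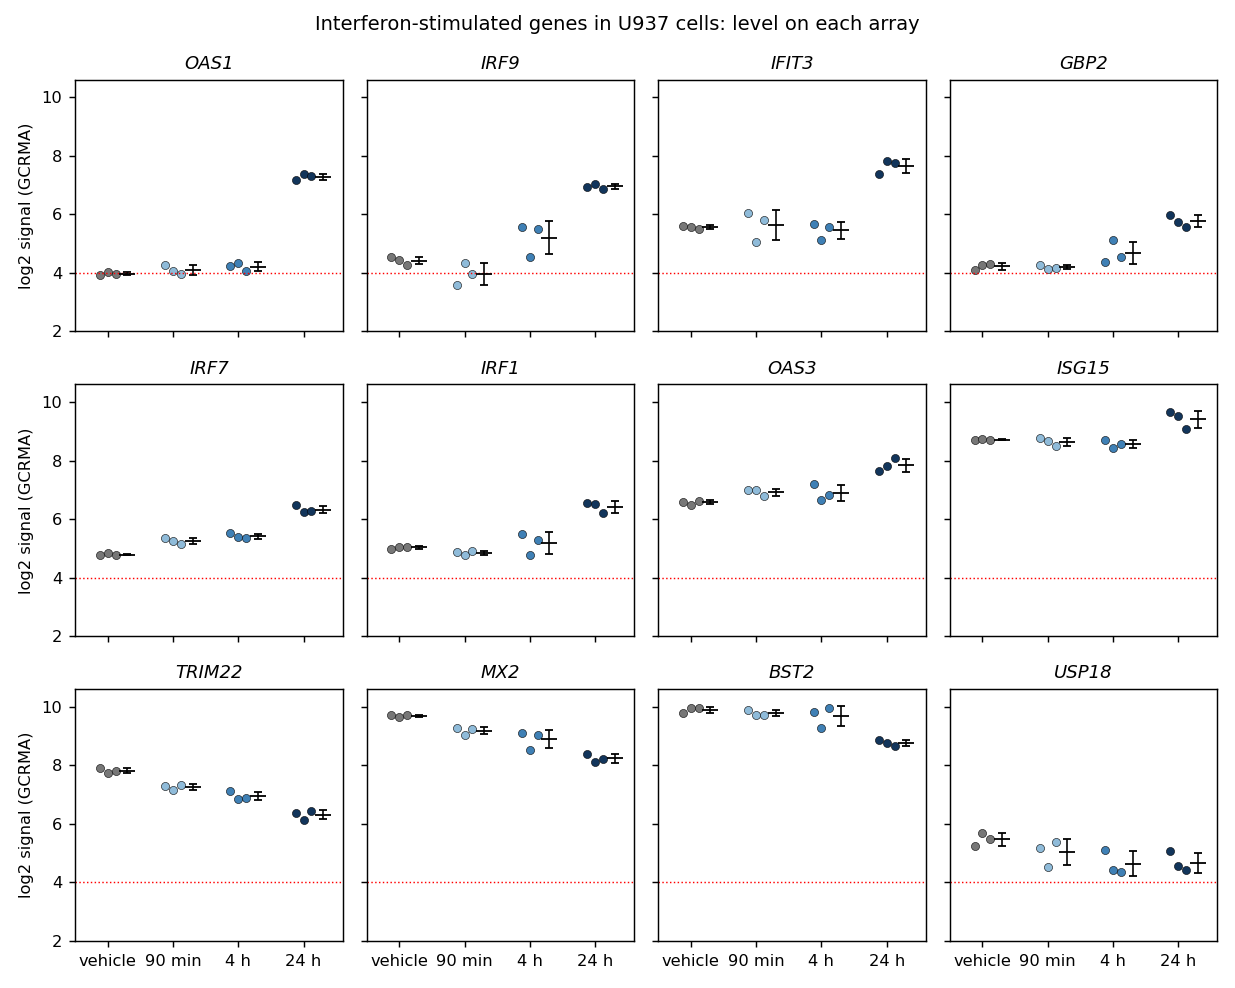
Log2 signal on each array for 12 interferon-stimulated genes in vehicle and at 90 min, 4 h and 24 h of JS-K. Points are arrays, horizontal bars with whiskers are the mean ± SD of 3 arrays, and the dotted line marks the low-signal level of 4. The 24 h arrays of OAS1, at 7.17 to 7.38, stand apart from its other groups, whereas the means of TRIM22 and MX2 step down from group to group.

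Of the sensors of viral RNA on the list, IFIH1, which encodes the cytoplasmic sensor MDA5, was measured and not called at any time. It averaged 7.67 ± 0.04 in vehicle, 7.54 ± 0.14 at 90 min, 7.46 ± 0.22 at 4 h and 7.78 ± 0.16 at 24 h.

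The ISG15 system moved in different directions. ISG15 (chromosome 1, 1013497 to 1014540) is a ubiquitin-like protein joined to other proteins after interferon. Its levels were 8.70, 8.74 and 8.71 in vehicle, 8.78, 8.65 and 8.51 at 90 min, 8.69, 8.41 and 8.57 at 4 h, and 9.65, 9.51 and 9.08 at 24 h. The 24 h arrays all lay above the rest, with replicate 3 nearest to them, and the difference from vehicle was 0.69 ± 0.13 (1.62-fold, adjusted p = 0.00108). HERC5, the ligase that attaches ISG15, averaged 8.91 ± 0.03 at 24 h against 9.02 ± 0.14 in vehicle and was not called. USP18, the protease that removes ISG15 and also restrains the interferon receptor, had 5.06, 4.55 and 4.41 at 24 h against 5.25, 5.69 and 5.50 in vehicle. All 3 arrays at 24 h lay below those of vehicle, with a difference of -0.81 ± 0.27 (adjusted p = 0.0349). This call ended without vehicle replicate 2 (0.102) or 3 (0.0844), or without 24 h replicate 2 (0.0972) or 3 (0.12), and after quantile normalization (0.0681), and the F test over all groups did not call USP18 (adjusted p = 0.0712).

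Of the oligoadenylate synthetases, which sense viral RNA and make the messenger that switches on RNase L, OAS1 and OAS3 were higher at 24 h. OAS1 (chromosome 12, 112906962 to 112933219) had 3.92, 4.02 and 3.97 in vehicle, 4.27, 4.06 and 3.96 at 90 min, 4.23, 4.35 and 4.05 at 4 h, and 7.17, 7.38 and 7.30 at 24 h. It stood at the edge of low signal until 4 h and was clearly above it at 24 h, with the largest difference of the 33 genes, 3.31 ± 0.14 (adjusted p = 2.99e-09). Since vehicle lay just under 4, the fold was at least 9.69. A further OAS1 probe set had low signal in vehicle (2.44) and at 4 h (2.86). It gave 3.61 ± 0.14 at 24 h (adjusted p = 5.79e-09) and 0.42 ± 0.14 at 4 h (0.0477). At 4 h OAS1 was not called (0.24 ± 0.14, adjusted p = 0.159), and its 4 h difference was 7.2% of that at 24 h.

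OAS3 (chromosome 12, 112938474 to 112973251), the next gene along from OAS1, had 6.59, 6.50 and 6.63 in vehicle, 6.99, 7.00 and 6.79 at 90 min, 7.21, 6.67 and 6.82 at 4 h, and 7.63, 7.82 and 8.07 at 24 h. Every JS-K array lay above every vehicle array. The difference was called at 24 h alone, at 1.27 ± 0.15 (2.41-fold, adjusted p = 2.24e-05), and a further OAS3 probe set of low signal gave 0.02 ± 0.11. The mean of both gave 0.64, still called. OAS2, the third gene of that cluster, had 2.83 ± 0.17 at 24 h against 2.68 ± 0.01 in vehicle, low in both groups. The related OASL (2.60 ± 0.03 at 24 h, 2.53 ± 0.05 in vehicle) and ISG20, an exonuclease (2.69 ± 0.67 at 24 h, 2.23 ± 0.02 in vehicle), were also low. For ISG20, replicate 3 at 24 h had 3.46 and the other arrays of that group 2.31 and 2.29.

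IFIT proteins bind viral RNA that lacks the host's cap marks, and their genes lie side by side on chromosome 10. IFIT3 (89327997 to 89340968) had 5.62, 5.58 and 5.50 in vehicle, 6.03, 5.06 and 5.80 at 90 min, 5.68, 5.13 and 5.57 at 4 h, and 7.38, 7.83 and 7.76 at 24 h. The first 3 groups overlapped one another and the 24 h arrays lay above them all. The difference from vehicle was 2.09 ± 0.24 at 24 h (4.27-fold, adjusted p = 1.34e-05), and a further probe set gave 0.72 ± 0.12 (adjusted p = 0.000477). Its neighbours IFIT2, IFIT1 and IFIT5 had low signal in every group and were not called at 24 h, with 2.97 ± 0.03, 2.90 ± 0.13 and 2.35 ± 0.01 at 24 h against 2.90 ± 0.07, 3.17 ± 0.50 and 2.30 ± 0.01 in vehicle.

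Among the interferon-induced GTPases, a guanylate-binding protein and an MX protein went opposite ways. GBP2 (chromosome 1, 89106132 to 89126114), of the family that attacks the membranes of intracellular microbes, had 4.08, 4.28 and 4.30 in vehicle, 4.26, 4.13 and 4.18 at 90 min, 4.38, 5.12 and 4.55 at 4 h, and 5.99, 5.75 and 5.56 at 24 h. The 24 h arrays lay above all others, and at 4 h replicate 2 was the highest. GBP2 was 2.92-fold higher at 24 h (1.55 ± 0.19, adjusted p = 2.83e-05), while its 4 h difference of 0.46 ± 0.19 was not called (0.0621). A further GBP2 probe set of low signal gave 0.35 ± 0.09 at 24 h (adjusted p = 0.0124), and the mean of both gave 0.95, still called. GBP1 averaged 3.38 ± 0.04 at 24 h against 3.02 ± 0.08 in vehicle and was called (adjusted p = 0.021), at low signal in both, and the call ended without vehicle replicate 2 (0.0527) or 3 (0.0806) or 24 h replicate 1 (0.0633).

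MX2 (chromosome 21, 41362027 to 41409393) encodes a GTPase known to hold back the nuclear entry of HIV. Its levels were 9.71, 9.64 and 9.71 in vehicle, 9.26, 9.05 and 9.25 at 90 min, 9.11, 8.53 and 9.05 at 4 h, and 8.39, 8.10 and 8.23 at 24 h. Every JS-K array lay below every vehicle array, and the 24 h arrays lay lowest. The difference was -0.50 ± 0.14 at 90 min (adjusted p = 0.0376), -0.79 ± 0.14 at 4 h (0.0011) and -1.44 ± 0.14 at 24 h (2.68e-06), when the signal was 2.72-fold lower. The call at 90 min ended in 8 of 16 alternatives, among them without any 1 of the 6 arrays compared (0.0704 to 0.157). MX1, its neighbour and a textbook marker of the interferon response, had 2.12 ± 0.01 at 24 h against 2.11 ± 0.02 in vehicle, low in both.

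TRIM22 and BST2, both antiviral effectors, were also lower at 24 h. TRIM22 (chromosome 11, 5689790 to 5710863), a ubiquitin ligase that represses transcription of HIV, had 7.91, 7.73 and 7.81 in vehicle, 7.29, 7.14 and 7.33 at 90 min, 7.12, 6.86 and 6.87 at 4 h, and 6.39, 6.14 and 6.43 at 24 h. No groups overlapped, and each later group lay below the one before it. Its differences were -0.56 ± 0.12 at 90 min (adjusted p = 0.00938), -0.87 ± 0.12 at 4 h (0.000194) and -1.50 ± 0.12 at 24 h (5.38e-07), when it was 2.82-fold lower. The call at 90 min ended without 90 min replicate 2 (0.0523). Of the 24 h difference, 57.9% was present at 4 h, as was 54.7% of that of MX2.

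BST2 (chromosome 19, 17402939 to 17405630), or tetherin, holds budding virus at the cell surface. Its levels were 9.79, 9.97 and 9.96 in vehicle, 9.89, 9.73 and 9.74 at 90 min, 9.81, 9.29 and 9.96 at 4 h, and 8.87, 8.75 and 8.67 at 24 h. The first 3 groups overlapped, and the 24 h arrays lay below them all. BST2 was lower at 24 h alone, by -1.14 ± 0.14 (2.21-fold lower, adjusted p = 2.9e-05).

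SAMD9, which blocks growth of poxviruses, was lower at 4 h and higher at 24 h. Its levels were 7.30 ± 0.21 in vehicle, 6.88 ± 0.12 at 90 min, 6.92 ± 0.09 at 4 h and 8.06 ± 0.12 at 24 h. The 24 h difference was 0.76 ± 0.12 (1.69-fold, adjusted p = 0.000305), and a further probe set gave 0.75 ± 0.19 (0.00996). The 4 h difference of -0.38 ± 0.12 (adjusted p = 0.0407) was not called in 7 of 15 alternatives. Among them were those without vehicle replicate 1 (0.13) or 2 (0.0712) and without 4 h replicate 1 (0.0602) or 2 (0.0635). The mean of the gene's probe sets (0.109) and quantile normalization (0.324) were also among them. The further probe set gave -0.06 at 4 h. Its neighbour SAMD9L had low signal throughout. XAF1, a proapoptotic factor induced by interferon, averaged 4.69 ± 0.10 in vehicle, 3.87 ± 0.02 at 90 min, 3.91 ± 0.17 at 4 h and 4.31 ± 0.22 at 24 h. It was lower at 90 min (-0.81 ± 0.14, adjusted p = 0.00259) and at 4 h (-0.78 ± 0.14, 0.00143), by at least 1.61-fold and 1.58-fold, and at 24 h its difference of -0.38 ± 0.14 missed the threshold (adjusted p of 0.05) and was called lower under 9 alternatives (0.00397 to 0.0447), among them without 24 h replicate 1 (-0.51, 0.0137). Its further probe sets were both of low signal. Of these, 1 gave -0.37 ± 0.12 at 90 min (0.0913) and -0.35 ± 0.12 at 4 h (0.0469), and another gave 0.02 and 0.08.

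IFI6, which guards mitochondria and the endoplasmic reticulum, had 7.33, 6.37 and 6.50 at 24 h against 6.65, 6.36 and 6.31 in vehicle, where replicate 1 alone at 24 h lay above all vehicle arrays, and it was not called. PARP9, a partner of the ligase DTX3L, was lower at 4 h alone (3.67 ± 0.40 against 4.49 ± 0.18 in vehicle, adjusted p = 0.0105), when it lay under 4, and averaged 4.41 ± 0.30 at 24 h. A further PARP9 probe set of low signal gave 0.03 at 4 h. The 15 genes with low signal in every group were MX1, IFIT1, IFIT2, IFIT5, OAS2, OASL, ISG20, GBP1, RSAD2, SAMD9L, IFI27, IFI35, IFI44, IFI44L and EPSTI1, and their single arrays ranged over 2.01 to 3.75. They made up 45.5% of the list, beside 50.1% of all genes (9906). RSAD2, which encodes the antiviral enzyme viperin, had 3.05 ± 0.02 at 24 h against 2.96 ± 0.02 in vehicle, and IFI27 had 2.12 ± 0.03 against 2.06 ± 0.02. No probe set of MX1, IFI27, IFIT1 or RSAD2 reached a group mean of 4.

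The times differed in which interferon-stimulated genes were called. At 90 min, IRF7 alone was higher and XAF1, TRIM22 and MX2 were lower, which is 1 and 3 of 33 genes beside 4.03% and 5.62% of all genes. At 4 h, 4 genes were higher (IRF9, IRF7, and at low signal GBP1 and IFI44L) and 7 lower (TRIM22, USP18, PARP9, MX2, XAF1, SAMD9 and HERC5), beside 23.9% and 16.6% of all genes (40.6% in either direction). The call of GBP1 ended without vehicle replicate 2 (0.0598) or 3 (0.0897) or with the 6 arrays alone (0.099). That of IFI44L ended in 8 of 13 alternatives, among them without any 1 vehicle array or 4 h replicate 2 (0.0644 to 0.127). The median difference of the list was -0.01 at 90 min and 0.05 at 4 h, beside 0.01 and 0.06 over all genes. The split over all genes at 4 h, 4735 higher and 3286 lower, became 2289 and 2583 after quantile normalization, under which 4 members were higher and 5 lower. Without 4 h replicate 2, 3 of the 33 members were higher and 4 lower at 4 h, beside 12.5% and 12.4% of all genes. They were IRF9, IRF7 and GBP1 above and TRIM22, MX2, XAF1 and PARP9 below vehicle. USP18 at 4 h had 5.12, 4.43 and 4.37 against 5.25, 5.69 and 5.50 in vehicle. Its call (adjusted p = 0.039) ended in 8 of 15 alternatives, among them without any 1 vehicle array or without 4 h replicate 2 or 3 (0.0518 to 0.0942). HERC5 at 4 h differed by -0.23 ± 0.08 (adjusted p = 0.0432), and after quantile normalization by -0.07, not called (0.543). That call ended in 6 of 15 alternatives, among them also without vehicle replicate 1 (0.133) or 3 (0.112) or 4 h replicate 2 (0.0604) or 3 (0.0557).

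**Figure D3:**
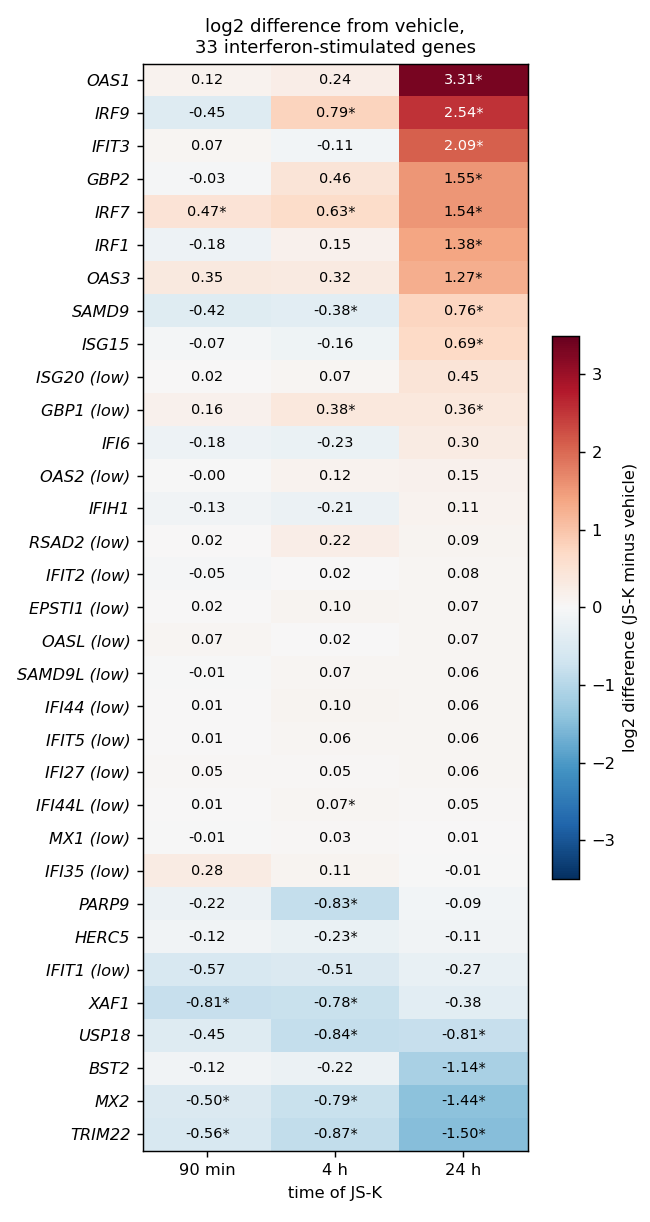
Log2 difference from vehicle of the 33 interferon-stimulated genes at 90 min, 4 h and 24 h of JS-K, ordered by the value at 24 h, with red for higher and blue for lower. A star marks an adjusted p under 0.05 and "low" marks the 15 genes with signal under 4 in every group. Most of the strong red lies in the 24 h column, from 0.69 for ISG15 to 3.31 for OAS1, whereas TRIM22 and MX2 are blue in all 3 columns.

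Between consecutive times, IRF9 was the sole member called from 90 min to 4 h. It was higher by 1.24 ± 0.26 (adjusted p = 0.00862), at least 2.13-fold since its 90 min mean lay under 4. That is 1 gene higher and 0 lower of 33, beside 3.33% and 7.25% of all genes, and 4 and 2 had an unadjusted limma p under 0.05. From 4 h to 24 h, 10 genes were higher and 3 lower, beside 12.8% and 10.7% of all genes. OAS1 (3.07 ± 0.14), IFIT3 (2.20 ± 0.24), IRF9 (1.75 ± 0.26), IRF1 (1.23 ± 0.18), SAMD9 (1.14 ± 0.12), GBP2 (1.08 ± 0.19), OAS3 (0.94 ± 0.15), IRF7 (0.91 ± 0.13), ISG15 (0.85 ± 0.13) and PARP9 (0.74 ± 0.20) were higher at 24 h than at 4 h. BST2 (-0.92 ± 0.14), MX2 (-0.65 ± 0.14) and TRIM22 (-0.63 ± 0.12) were lower. Of these calls that of PARP9 ended in 2 of 15 alternatives, among them without 24 h replicate 2 (adjusted p = 0.0801). The call of IRF9 from 90 min to 4 h ended with the 6 arrays alone (0.0539). The comparisons of 4 h and 24 h with vehicle share the vehicle arrays, so the share of a 24 h difference present at 4 h is a description. It was 40.9% for IRF7, 30.9% for IRF9, 29.9% for GBP2, 25.5% for OAS3, 11% for IRF1 and 7.2% for OAS1. The share was negative for IFIT3 (-5.2%), ISG15 (-22.6%) and SAMD9 (-49.7%), whose 4 h means lay below those of vehicle. IFIT3 and ISG15 were not called at 4 h, and the IFIT3 arrays overlapped those of vehicle. The F test called 15 of the 33 genes (45.5%), beside 38.1% of all genes.

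The interferons themselves had low signal. All 18 measured interferon genes lay under 4 in every group, and IFNB1, the type I interferon that many cells make first, had 2.38 ± 0.01 at 24 h against 2.30 ± 0.03 in vehicle (adjusted p = 0.0809). At 4 h, 12 of the 18 were called higher, all at low signal and by no more than 0.15, beside 23.9% of all genes, of which 4735 were higher in this fit and 1507 with a constant spread. Their receptors had clear signal, except IFNLR1, and 5 of 6 were higher at 24 h. Counts of this and the following lists at 24 h stand beside 17.8% of all genes higher and 18.9% lower. IFNGR1, a chain of the interferon gamma receptor, was higher by 1.08 ± 0.06 at 24 h (adjusted p = 2.28e-08) and already by 0.67 ± 0.06 at 90 min (1.98e-05). The type I receptor chains IFNAR1 and IFNAR2 were higher at 24 h by 0.75 ± 0.10 (4.73e-05) and 0.56 ± 0.08 (6.71e-05), and IFNGR2 by 0.72 ± 0.08 (9.45e-06). Of the kinases and STAT3, 3 of 4 were higher at 24 h, namely STAT3 (0.77 ± 0.12), JAK1 (0.71 ± 0.07) and TYK2 (0.49 ± 0.12).

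Upstream of the interferon genes, 6 of 15 nucleic acid sensors and their adaptors were higher at 24 h and 0 were lower, beside 17.8% and 18.9% of all genes. STING1, the adaptor for cytoplasmic DNA sensing, averaged 7.97 ± 0.11 in vehicle, 8.44 ± 0.08 at 90 min, 8.68 ± 0.28 at 4 h and 9.55 ± 0.09 at 24 h, and was higher at all 3 times (by 1.58 ± 0.12 at 24 h, adjusted p = 4.59e-07). TICAM1 (0.81 ± 0.16), IFI16 (0.59 ± 0.07) and CGAS (0.48 ± 0.15) were also higher at 24 h, whereas TLR4, the endotoxin receptor, had its largest difference at 90 min (0.73 ± 0.09) and 0.30 ± 0.09 at 24 h. Of 7 kinases and further interferon regulatory factors, IRF2 and TBK1 were higher at 24 h and IRF8, a factor that guides monocyte development, was lower. IRF8 averaged 11.23 ± 0.08 in vehicle, 10.64 ± 0.10 at 90 min, 9.88 ± 0.14 at 4 h and 9.32 ± 0.16 at 24 h, and was lower by -1.91 ± 0.10 at 24 h (adjusted p = 1.07e-08). Of 10 negative regulators, 6 were higher at 24 h and 2 lower. TRIM21 (1.49 ± 0.17) and the phosphatase PTPN6 (0.95 ± 0.09) led the higher ones and PTPN2, which dephosphorylates JAK1, was lower (-0.66 ± 0.09). SOCS1 and SOCS3, the inducible inhibitors of JAK kinases, had low signal and were not called at any time.

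Of 15 genes of antigen presentation by class I molecules, 9 were higher and 4 lower at 24 h, beside 17.8% and 18.9% of all genes. NLRC5, the activator of class I genes, and HLA-E were higher by 0.98 ± 0.15 and 0.96 ± 0.08. The immunoproteasome subunit PSMB8 and the peptide transporter TAP2 were lower, by -1.33 ± 0.09 and -1.14 ± 0.12. Of 36 further genes known to respond to interferon, 8 were higher and 13 lower at 24 h. The helicase gene DDX60L had 9.88 ± 0.13 at 24 h against 7.33 ± 0.03 in vehicle (2.55 ± 0.13, adjusted p = 1.01e-08). TRIM14 had 7.75 ± 0.13 against 10.10 ± 0.04 in vehicle (-2.35 ± 0.11, adjusted p = 6.68e-09), and PNPT1 and IFITM1 were lower by -1.73 ± 0.10 and -1.46 ± 0.19. UBE2L6, the conjugating enzyme for ISG15, was lower at 90 min (-1.04 ± 0.10), 4 h (-1.26 ± 0.10) and 24 h (-1.25 ± 0.10). Over the 111 other pathway genes measured, 39 were higher and 20 lower at 24 h, 30 and 23 at 4 h, and 8 and 10 at 90 min. Of all genes, 17.8% were higher and 18.9% lower at 24 h, 23.9% and 16.6% at 4 h, and 4.03% and 5.62% at 90 min.

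**Figure D4:**
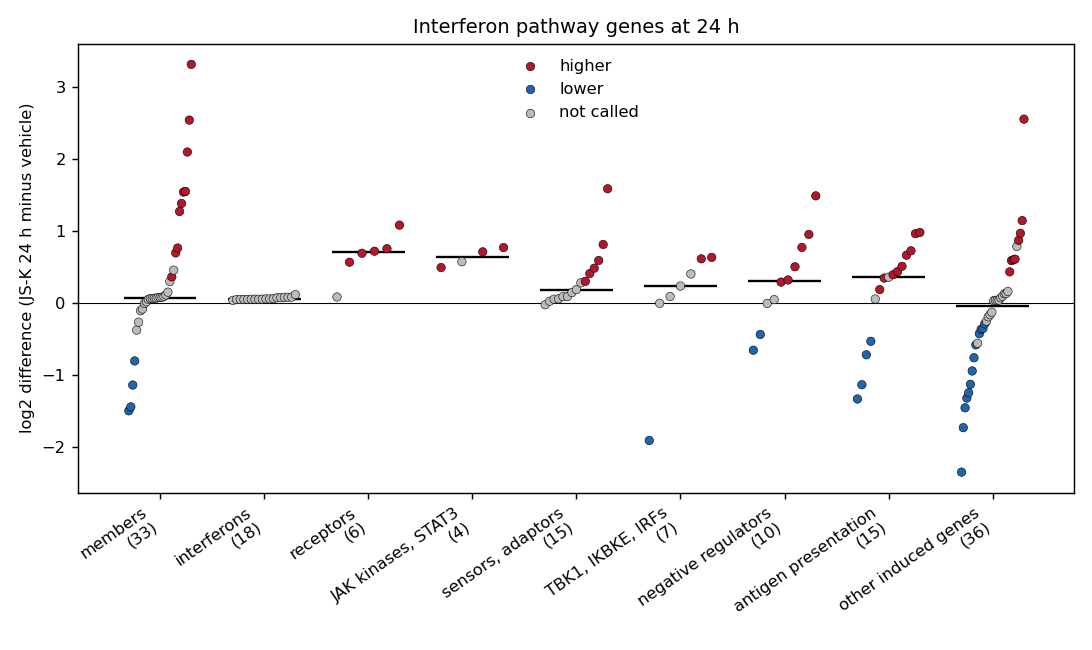
Log2 difference at 24 h of JS-K from vehicle for the 33 interferon-stimulated genes (members) and 8 further lists of the interferon pathway, with the number of genes measured in parentheses. Each point is a gene, red where called higher, blue where called lower and grey where not called, and horizontal lines are medians. Receptors lie mostly above 0, interferons lie near 0 at low signal, and the members and the other induced genes spread in both directions.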

How the data were processed

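RNA of U937 cells was measured on 12 Affymetrix arrays. The authors deposited log2 values per probe set, made with GCRMA in Affymetrix Expression Console, per the submitters' processing notes, and these were used without further normalization. Labels state that RNA was primed with random hexamers in a whole-transcript labelling kit, while the probe set names are of a design that reads 3′ ends. Of 54675 probe sets, the platform's annotation gives a lone gene symbol to 41097, more than 1 symbol to 1801 and no symbol to 11777.

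Groups were compared in limma 3.58.1 (R 4.3.3) with eBayes and a trend, 8 residual degrees of freedom, two-sided, adjusted over 19775 genes. Labels call the arrays biological replicates, and p-values measure the spread between them. Simulated data for 24 h against vehicle (19775 genes) had independent noise for each gene, and changes only in genes with a mean above 4. There the fit recovered 85 of 100 simulated 2-fold changes and 100 of 100 simulated 4-fold changes. Of its 198 calls, 13 were unchanged genes. Shifts of whole arrays and changes at low signal were not simulated, so these rates do not cover them. Nor do they cover data with as many changed genes as here, where 36.7% of all genes were called at 24 h. The genes, lists and tests were chosen with earlier results of these data known. Values on each array are given for members called with a log2 difference of at least 1 and a group mean of at least 4, and for IRF1, IRF7, IRF9 and ISG15. Other members are given by means or ranges, with USP18, IFI6 and ISG20 by array added after their values were seen, and other pathway lists by counts, up to 4 called genes each and a few fixed genes (interferon beta, receptors, kinases, SOCS1, SOCS3, STAT3 and TLR4). A fold with 1 group mean under 4 is a lower bound, with that group's arrays set to no less than 4. No fold is given with both under 4.

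Arrays with the same replicate number deviated together by correlations of -0.134 to 0.369 over 18 pairs, 7 of them above 0.1. For 90 min and vehicle all 3 pairs were above 0.1 (0.128 to 0.229), so the numbers pair these groups by that measure. Alternatives were a constant spread, removal of low-signal genes, averaging all probe sets per gene, each probe set alone, quantile normalization, array medians, the replicate block, array weights, the 6 arrays compared, and each array left out.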

Additional observations from a re-analysis of the deposited data

Results flagged for a closer look

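Probe sets for the poly-A spikes, control transcripts outside the comparisons above, had signal at 4 h (7.02) and 24 h (8.47) above the level in vehicle (3.04), which flagged them. At 90 min they had 3.08.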

How the results depend on the processing

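Apart from the fits of each probe set alone, no call of an interferon-stimulated gene changed direction. Of 43 calls, 30 held under all those alternatives and 13 ended under 1 or more. That is, 593 of 659 repeats kept the call and 66 did not. Among single probe sets, a further one of IRF1 (0.29, adjusted p = 0.247) and of OAS3 (0.02, 0.907) was not called at 24 h. Further probe sets of PARP9 at 4 h (0.03) and of XAF1 at 90 min and 4 h (0.02 and 0.08) had the opposite sign, at low signal and not called. Leaving out arrays, the counts of members ranged over 0 to 0 higher and 1 to 3 lower at 90 min (1 and 3 with all arrays). At 4 h they were 1 to 7 and 4 to 7 (4 and 7), and at 24 h 9 to 11 and 3 to 5 (10 and 4). For 4 h against 90 min they were 1 to 2 and 0 to 0 (1 and 0), and for 24 h against 4 h 10 to 12 and 3 to 3 (10 and 3). Of all genes, those fits called 2.78% to 3.17% higher and 3.19% to 4.46% lower at 90 min. At 4 h they called 5.67% to 41.2% and 11.6% to 19.1%, and at 24 h 13% to 15% and 16.7% to 17.6%. For 4 h against 90 min the shares were 2.33% to 3.97% and 4.63% to 9.23%. For 24 h against 4 h they were 10.8% to 13.4% and 9.11% to 13.2%. Array weights, estimated gene by gene because the usual estimate did not converge, gave 4 higher and 5 lower at 90 min, 9 higher and 8 lower at 4 h, 19 higher and 6 lower at 24 h, 2 higher for 4 h against 90 min and 25 by the F test. Of all genes, that setting called 10.9% higher and 12.1% lower at 90 min, and 43.5% and 18.5% at 4 h. At 24 h it called 55.8% and 22.7%, and for 4 h against 90 min 7.08% and 8.33%. The 6 arrays of a comparison alone gave 1 higher and 4 lower at 4 h, beside 5.15% and 11% of all genes. At 24 h they gave 18 higher and 5 lower, beside 53.2% and 20.5%, and for 4 h against 90 min 0, beside 1.95% and 4.26%. Leaving out 4 h replicate 2, which was chosen after seeing the data, gave 16 higher and 5 lower at 24 h, beside 52.0% and 21.3% of all genes. The 8 members that the 6 arrays alone added as higher at 24 h (IFIT5, OASL, RSAD2, SAMD9L, IFI27, IFI44, IFI44L and EPSTI1) were of low signal and XAF1, of higher signal, was added as lower, and over all genes the higher count was 10514 in place of 3518. A constant spread gave 2 higher at 4 h, and 1507 higher and 2912 lower over all genes. For 4 h against 90 min the mean of probe sets gave 2 higher, and leaving out low-signal genes, by either rule, gave 1 lower. The cause of these changes was not tested. The share of higher among all called genes was 59.0% at 4 h and 47.0% after quantile normalization, 54.5% for 24 h against 4 h and 32.7% with array medians subtracted, and 31.5% for 4 h against 90 min and 46.4% after quantile normalization. With the replicate number as a block, 1 member was higher and 3 lower at 90 min, beside 4.14% and 5.68% of all genes. At 4 h 6 and 7 were, beside 33.3% and 17.7%, and at 24 h 10 and 4, beside 21.4% and 19.1%. The block ended no call. Signal near background limits what can be said of the 15 low genes.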
